A study of Mus musculus with 6 samples.

Results

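The expression of 9 chemokine genes and the cytokine gene Il6 was examined in NIH3T3, a fibroblast line from mouse embryos, as wild type and with a label of overexpression of the Nogo-B receptor NgBR. The 10 genes, Cxcl12, Cxcl1, Cxcl5, Cxcl10, Cxcl16, Ccl2, Ccl7, Ccl5, Cx3cl1 and Il6, were chosen by name from the 35275 genes of the count table, and each had its own row in it. The low level of Cxcl12 with NgBR overexpression was known when the genes were chosen. Their differences between the groups are therefore given as a description, with no p-value. Libraries carrying the genotype label NgBR overexpression are called NgBR-labelled, and values of 3 libraries are listed in the order of their numbers.

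RNA was sequenced in 6 libraries, 3 of wild-type NIH3T3 cells with no treatment and 3 of the line called 3T3NgBR, derived from the same cells. Per the labels' protocols, the 3T3NgBR cells stably carried a pIRES plasmid for NgBR with an HA tag, kept by G418 selection, and both lines grew in DMEM with antibiotics and 10% calf serum. The labels do not say whether the 3T3NgBR line is a clone or a pool, or whether the wild-type cells carried a vector. They also do not say whether the replicates came from separate cultures, so that the spread between them may be technical. Wild-type libraries held 29515072 to 35511769 counts and the others 7369961 to 10358381, so that wild type was on average 3.50-fold deeper, a gap that cannot be told apart from the groups. Levels are given as CPM, counts scaled per 1e6 of a library size adjusted by TMM (trimmed mean of M-values). Nus1, the gene of NgBR, was at 212, 187 and 233 CPM in wild type and at 184, 185 and 165 CPM in the NgBR-labelled libraries, so that the counts at the mouse gene did not rise with the label and the lowest wild-type library was above the highest of the others (log2 fold change -0.24, SE 0.21, edgeR adjusted p = 0.786). The labels do not give the species of the transgene, so these counts cannot check the label.

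Chemokines are small secreted proteins that guide migrating cells by binding G-protein-coupled receptors, and they are classed by the spacing of their first cysteines into CXC, CC and CX3C types. Cxcl12, also called SDF-1, is made constitutively by stromal cells and retains CXCR4-bearing blood progenitors and lymphocytes in their niches. Most of the other members are inflammatory: fibroblasts induce them through NF-kB, interferon signalling or both when stimulated by IL-1, TNF, Toll-like receptor ligands or interferons. Il6 is not a chemokine, but is induced in fibroblasts by much the same signals.

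Promoter sequences are shown for 4 members because they show how the letters of Cxcl12 differ from those of members that match elements read by NF-kB or interferon signalling. RefSeq windows on build GRCm38.p6 were matched for 5 of the 10 genes, Cxcl12, Cxcl1, Cxcl10, Cx3cl1 and Il6. Each window printed is the 250 bases before the transcription start, 5′ to 3′ on the gene's strand: chr6:117168285-117168534 (plus strand) for Cxcl12, chr5:90890995-90891244 (plus) for Cxcl1, chr5:92348890-92349139 (minus) for Cxcl10 and chr5:30012864-30013113 (plus) for Il6. Capitals mark matches, on either strand, to the letters GGGANNTTC (kB element, bound by NF-kB), GAAANNGAA (interferon-stimulated response element) or GGGCGG (GC box).
Cxcl12: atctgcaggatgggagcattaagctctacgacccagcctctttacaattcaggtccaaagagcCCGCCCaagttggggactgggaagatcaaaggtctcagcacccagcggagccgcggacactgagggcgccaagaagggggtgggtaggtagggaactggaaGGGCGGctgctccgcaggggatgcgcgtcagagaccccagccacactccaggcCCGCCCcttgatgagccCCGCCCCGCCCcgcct
Cxcl1: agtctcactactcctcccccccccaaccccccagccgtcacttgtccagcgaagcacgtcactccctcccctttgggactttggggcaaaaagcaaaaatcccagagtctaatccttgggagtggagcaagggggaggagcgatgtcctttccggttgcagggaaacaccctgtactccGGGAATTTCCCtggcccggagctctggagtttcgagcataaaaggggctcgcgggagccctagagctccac
Cxcl10: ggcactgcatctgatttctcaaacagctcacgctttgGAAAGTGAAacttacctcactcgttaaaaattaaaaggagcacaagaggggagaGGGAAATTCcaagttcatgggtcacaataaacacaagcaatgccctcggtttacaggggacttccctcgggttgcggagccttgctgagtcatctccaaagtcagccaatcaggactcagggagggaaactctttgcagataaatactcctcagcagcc
Il6: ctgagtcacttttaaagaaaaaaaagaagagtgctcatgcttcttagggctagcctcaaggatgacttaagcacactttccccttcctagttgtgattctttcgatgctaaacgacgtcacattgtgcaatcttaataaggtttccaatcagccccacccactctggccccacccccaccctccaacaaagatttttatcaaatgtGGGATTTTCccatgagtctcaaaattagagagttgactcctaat

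The kB letters occurred in Cxcl1, Cxcl10 and Il6, at 3 of the 5 members with a window, against 3.23% of the 32851 windows of all genes. They began 71 bases before the start in Cxcl1 (positions -71 to -63), where a second match on the opposite strand overlapped the first, at -159 to -151 in Cxcl10 and at -44 to -36 in Il6. The interferon element was found in Cxcl10, at -213 to -205, and in 7.13% of all windows. Cxcl12 had no match to these letters. Its window held 5 GC boxes, of which 2 share a base, where 32.7% of all windows hold at least 1, and 14 CpG dinucleotides with a GC content of 64.4%. The windows with kB letters held 10 CpG at 59.2% GC in Cxcl1, 5 at 48% in Cxcl10 and 3 at 42.8% in Il6. The medians over all windows were 6 CpG and 52.4% GC. Cx3cl1 resembled Cxcl12 in base composition, with 14 CpG and 64.8% GC, and held 1 GC box. The motifs were chosen after the windows were seen, and a match is a stretch of letters, not a bound site. Variants of these elements with other letters were not searched for and stay in lower case.

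Cxcl12 (ENSMUSG00000061353, mm10 chromosome 6, 117168535 to 117181367, plus strand, protein-coding, 4 annotated transcripts) was the member with the lowest levels relative to wild type among the 8 that were tested. It was at 136, 149 and 138 CPM in wild type and at 14.7, 21.8 and 24.0 CPM in the NgBR-labelled libraries. The groups did not overlap: the lowest wild-type library was 5.65-fold above the highest of the others. Mean levels of 141 ± 7.13 and 20.2 ± 4.83 CPM (SD, n = 3 each) differed 6.98-fold. On the log2 scale the change was -2.80 (SE 0.25, 95% interval -3.36 to -2.24), and between -2.94 and -2.63 when each library was left out in turn. In wild-type cells Cxcl12 ranked 1600th by CPM among the 35275 genes and had the smallest relative spread of the 10 members, with a coefficient of variation of 5.06%. The counts are per gene, so that the splice forms of Cxcl12, which differ in their C-terminal tails, cannot be told apart, and in bulk RNA fewer expressing cells and less RNA per cell cannot be told apart either.

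**Figure D1:**
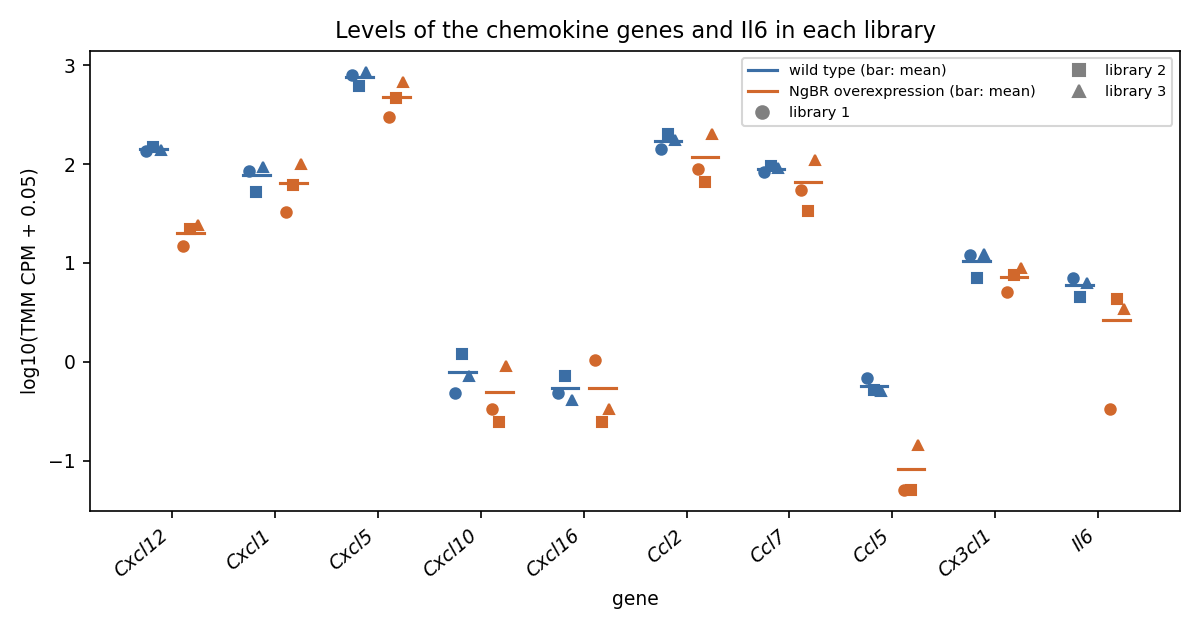
Levels of the 10 genes in each library, as log10(CPM + 0.05), for wild type (blue) and the NgBR-labelled libraries (orange); bars are means of 3 libraries and the marker shape gives the library number. Cxcl12 lies between 136 and 149 CPM in wild type and between 14.7 and 24.0 CPM in the others, whereas the points of 7 of the 10 genes overlap between the groups.

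Of the 10 members, 8 passed the filter on low counts, and Ccl5 and Cxcl16 did not. By edgeR's quasi-likelihood test over all 12651 tested genes, 1 of the 8, Cxcl12, was called (Benjamini-Hochberg adjusted p under 0.05), where 3.39% of all tested genes were called in either direction and 1.35% as lower (2.04% as higher). Nothing is read from this count, since the choice of members used it. All 8 fold changes were below 0, as were 51.3% of all tested genes, and their median was -0.60, or -0.54 without Cxcl12, against -0.01 over all tested genes. The 95% intervals of the 7 other tested members all held 0. The CPM ranges of the groups were separate for 2 of the 8 tested members, Cxcl12 and Il6, and for Ccl5, in each case with the wild-type libraries higher. Over all tested genes 18.6% had separate ranges, 9.37% with the wild-type libraries higher. On the second principal component, which held 32.4% of the variance, the libraries numbered 1 and 3 scored -1.08 to 30.4. Both libraries numbered 2 were lower, at -26.9 (wild type) and -48.7 (NgBR-labelled). Without them the log2 fold change was -2.81 for Cxcl12, -1.73 for Il6, -0.78 for Cx3cl1, -0.77 for Cxcl5, -0.43 for Cxcl1, -0.13 for Ccl2, -0.07 for Ccl7 and 0.17 for Cxcl10. The count of separate ranges rested on single libraries: 7 of the 10 members had separate ranges without NgBR-labelled library 3 (33.4% of all tested genes), and without wild-type library 2 there were 5 (28.9%).

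**Figure D2:**
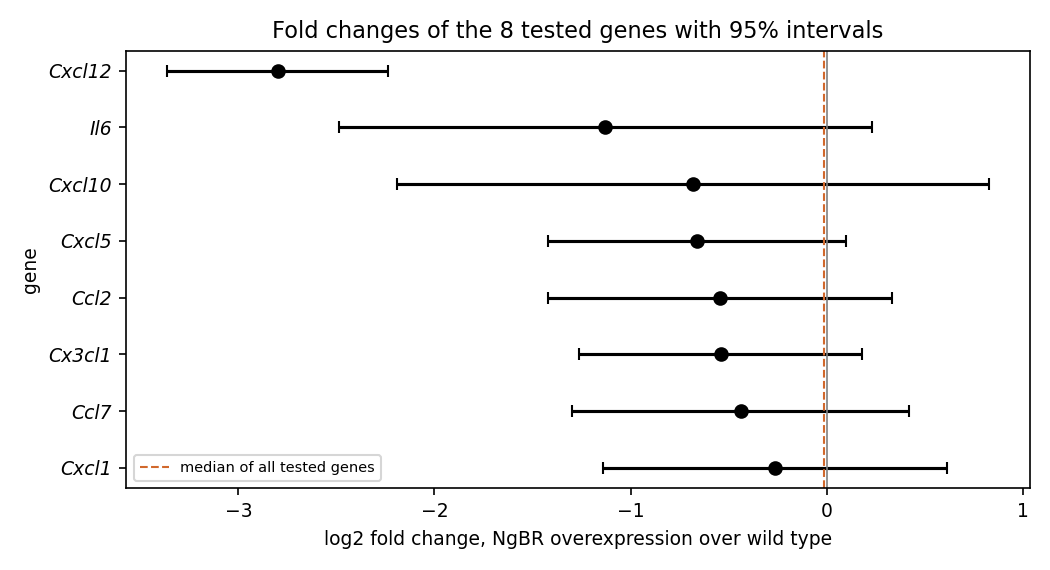
Log2 fold changes of the 8 tested genes, NgBR overexpression over wild type, with 95% intervals from edgeR; the dashed line is the median of all tested genes (-0.01). The interval of Cxcl12 runs from -3.36 to -2.24, and the intervals of the other 7 genes hold 0.

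Cxcl1 and Cxcl5 are neutrophil attractants that signal through the receptor CXCR2. Their genes lie in the same cluster on chromosome 5 (Cxcl5 at 90759360 to 90761624, Cxcl1 at 90891241 to 90893115, both plus strand). Cxcl5 was the most abundant member, at 797, 623 and 861 CPM in wild type and at 300 (299.6), 467 and 674 CPM in the NgBR-labelled libraries. Library 3 of the latter lay above wild-type library 2, so that the ranges overlapped. The log2 fold change was -0.66 (SE 0.34, 95% interval -1.42 to 0.10). Cxcl1 was at 85.1, 52.6 and 93.4 CPM in wild type and at 32.6, 60.8 and 99.1 CPM in the others. Its lowest and its highest value were both in NgBR-labelled libraries, and its log2 fold change was -0.26 (SE 0.39, 95% interval -1.14 to 0.61), which became 0.048 without NgBR-labelled library 1. Cxcl5 counts were 9.37, 11.8 and 9.21 times those of Cxcl1 in wild type and 9.20, 7.68 and 6.80 times in the others. The ratio was thus highest in wild-type library 2, where Cxcl1 had its lowest wild-type level.

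Ccl2 and Ccl7, also known as MCP-1 and MCP-3, attract monocytes through CCR2 and lie 8258 bases apart on chromosome 11 (Ccl2 at 82035571 to 82037453, Ccl7 at 82045712 to 82047525, both plus strand). Ccl2 was at 142, 200 (200.2) and 174 CPM in wild type and at 89.3, 65.8 and 200 (199.8) CPM in the NgBR-labelled libraries. Ccl7 was at 82.2, 95.8 and 92.4 CPM in wild type and at 55.2, 33.7 and 110 (110.5) CPM in the others. For both genes NgBR-labelled libraries 1 and 2 lay below every wild-type library, and library 3 did not. The log2 fold changes were -0.54 (SE 0.39, 95% interval -1.42 to 0.33) for Ccl2 and -0.44 (SE 0.38, 95% interval -1.30 to 0.42) for Ccl7. Without NgBR-labelled library 3 they were -1.15 and -1.02, and without NgBR-labelled library 2 -0.26 and -0.13. The ratio of Ccl2 to Ccl7 counts stayed in a narrow range while the levels varied: it was 1.73, 2.09 and 1.89 in wild type and 1.62, 1.95 and 1.81 in the others. In each group library 1 had the lowest ratio and library 2 the highest.

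**Figure D3:**
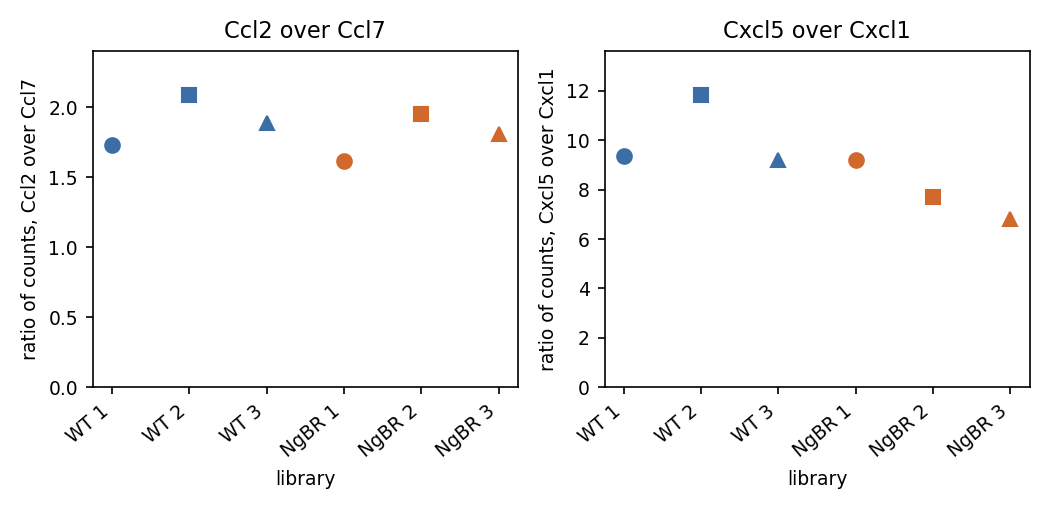
Ratio of counts of Ccl2 to Ccl7 (left) and of Cxcl5 to Cxcl1 (right) in each library, wild type (WT, blue) and labelled NgBR overexpression (NgBR, orange), with axes from 0. The Ccl2 to Ccl7 ratio lies between 1.62 and 2.09 in the 6 libraries, and the Cxcl5 to Cxcl1 ratio between 6.80 and 11.8.

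NgBR-labelled library 3 held the highest level of its group for 8 of the 10 members, and library 1 the lowest for 5. Library 3 was also the library with the strongest tilt towards short genes: exonic length and a gene's log2 CPM relative to its mean in the 6 libraries had a Spearman correlation of -0.47 there, against 0.36 in NgBR-labelled library 2 and 0.08 in NgBR-labelled library 1. It was -0.22, 0.25 and -0.29 for wild type, in each case across 12589 genes, which share a library and are not replicates. Ccl7 and Ccl2 have 801 and 1138 bases of annotated exon, and Cxcl12 has 8176. The part of this tilt in the members' levels was not tested.

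Il6 (chromosome 5, 30013114 to 30019981, plus strand) encodes interleukin-6, an inducer of the acute-phase response. It was at 7.04, 4.50 and 6.23 CPM in wild type, and at 0.281, 4.25 and 3.34 CPM in the NgBR-labelled libraries. The first of these 3 values rested on 2 counts. The ranges were separate by a small margin, the lowest wild-type library being 1.06-fold above the highest of the others. Its change of -1.13 on the log2 scale had an SE of 0.60 and a 95% interval of -2.49 to 0.23, and was -0.65 without NgBR-labelled library 1.

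Cx3cl1 (chromosome 8, 94772009 to 94782427, plus strand), or fractalkine, is a membrane-anchored chemokine that is shed by ADAM proteases. It was at 11.9, 7.07 and 12.3 CPM in wild type and at 5.05, 7.52 and 8.79 CPM in the others. Wild-type library 2 lay among the NgBR-labelled libraries, and the log2 fold change was -0.54 (SE 0.32, 95% interval -1.26 to 0.18).

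The remaining chemokines were near the limit of detection. Cxcl10 (chromosome 5, 92346638 to 92348889, minus strand), an interferon-induced attractant of T cells, had 15, 34 and 22 counts in wild type and 2, 2 and 9 in the shallower NgBR-labelled libraries. Its levels were 0.747 ± 0.368 and 0.446 ± 0.361 CPM (SD, n = 3 each), and the log2 fold change was -0.68 (SE 0.67, 95% interval -2.19 to 0.83). Ccl5 (chromosome 11, 83525778 to 83530518, minus strand), or RANTES, an attractant of T cells and monocytes, had 22, 14 and 15 counts in wild type and 0, 0 and 1 in the others. The ratio of the pooled rates was 14.5, with an exact 95% interval of 2.48 to 582 that covers counting error only, and 3 counts over the NgBR-labelled libraries correspond to 0.108 CPM. Cxcl16 (chromosome 11, 70453983 to 70459984, minus strand), a transmembrane chemokine and scavenger receptor, had 15, 20 and 12 counts in wild type and 7, 2 and 3 in the others, equal to 0.489 ± 0.166 and 0.489 ± 0.430 CPM. A difference in Cxcl16 was not detectable at this depth, the pooled ratio being 1.11 with an interval of 0.58 to 2.30. Cxcl10, Cxcl16 and Ccl2 overlap Art3, Zmynd15 and Gm17268 on the opposite strand, which had at most 2, 9 and 1 counts in any library. With the strand setting unknown, reads of the stretch shared by Cxcl16 and Zmynd15 (70459433 to 70459984) cannot be told apart.

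Levels were then compared between members as CPM per kilobase of annotated exon. In wild type the order from high to low was Cxcl5, Ccl2, Ccl7, Cxcl1, Cxcl12, Cx3cl1, Il6, Ccl5, Cxcl10 and Cxcl16. The mean levels ran from 408 ± 66.2 CPM per kilobase for Cxcl5 over 151 ± 25.5 for Ccl2, 113 ± 8.79 for Ccl7, 41.1 ± 11.5 for Cxcl1 and 17.2 ± 0.872 for Cxcl12 to 0.162 ± 0.0549 for Cxcl16 (SD, n = 3). The ranges of neighbours overlapped for Cx3cl1 and Il6, for Ccl5 and Cxcl10 and for Cxcl10 and Cxcl16, and were separate for the other 6 neighbouring pairs. In the NgBR-labelled libraries Cxcl12 was again the fifth, at 2.47 ± 0.591 CPM per kilobase, and its range overlapped that of Cx3cl1 (1.81 ± 0.484), whereas in wild type every Cxcl12 value was above every Cx3cl1 value. Among the NgBR-labelled libraries, Cxcl1 and Cxcl12 were the only neighbouring pair with separate ranges. Of the summed level of the 10 genes, Cxcl12 took 2.29, 2.67 and 2.10% in wild type and 0.548, 0.683 and 0.399% in the others. Cxcl5 took 55.2 ± 5.36% and 54.1 ± 8.85%. Cxcl12 has the longest annotated exons of the 10 members, and by CPM without division by length its rank in wild type was 3.

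**Figure D4:**
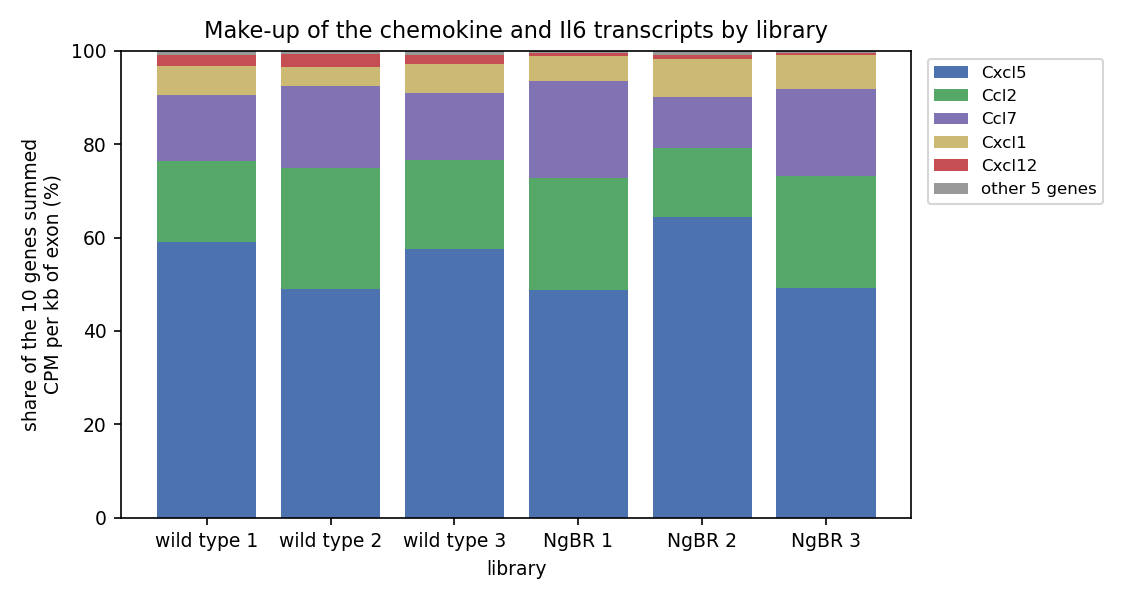
Share of each gene in the summed CPM per kilobase of exon of the 10 genes, by library (NgBR, labelled NgBR overexpression). Cxcl5 takes 48.9 to 64.4% of each bar, and the Cxcl12 share lies between 2.10 and 2.67% in wild type and between 0.399 and 0.683% in the others.

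Leaving out genes with a symbol of a predicted gene or clone, 5 genes were most like Cxcl12 over the 6 libraries. They were Dkk3, a secreted protein of the Dickkopf family, Gpnmb, a transmembrane glycoprotein, and Sumo3, a ubiquitin-like modifier. The others were Sfmbt1, a Polycomb-related protein, and Nid2, a basement membrane nidogen. Likeness was the Euclidean distance between centred log2(CPM + 0.5) values over the 6 libraries, among the 10033 genes with a mean of at least 5 CPM, and the distances were 0.62, 0.64, 0.69, 0.74 and 0.75, against a median of 3.52 over all of them. Dkk3, the nearest, was at 41.8, 30.5 and 48.2 CPM in wild type and at 4.21, 6.13 and 5.45 CPM in the others. Most of this likeness is the difference between the groups, and by Pearson correlation none of these 5 genes was among the nearest 5. The other members with a mean of at least 5 CPM were farther away. Their distances were 2.61 for Cxcl5, 2.80 for Ccl2, 2.89 for Cx3cl1, 2.94 for Ccl7 and 3.14 for Cxcl1. Il6, Cxcl10, Cxcl16 and Ccl5 were below this mean and were not compared. Of the genes compared, 234 were nearer to Cxcl12 than Cxcl5, the nearest of the members compared.

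The chromosomal neighbours of the members that are also chemokines were mostly silent. Between Cxcl5 and Cxcl1 lie Ppbp, Pf4, Cxcl3 and Cxcl15. Ppbp was at 1.67 ± 0.46 CPM in wild type and 2.57 ± 1.50 CPM in the others, and Pf4, Cxcl3 and Cxcl15 had at most 3 counts in any library. Cxcl2, 10755 bases beyond Cxcl1, and Cxcl9, next to Cxcl10, had 0 counts in all 6 libraries, which allows up to 0.0307 CPM in wild type and 0.108 CPM in the NgBR-labelled libraries (3 counts over each group). Downstream of Ccl7, Ccl11 had at most 7 counts in any library, Ccl12 had 0, and Ccl8 was at 0.846 ± 0.0691 and 0.700 ± 0.488 CPM. Ccl9, 42400 bases from Ccl5 on chromosome 11, was at 10.2, 35.0 and 9.45 CPM in wild type and at 10.5, 8.31 and 8.60 CPM in the others, so that wild-type library 2 stood above the remaining libraries.

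Genes around the chemokines were next tested with edgeR in 6 lists: receptors, processing and binding proteins, other chemokines, other cytokines, NF-kB with its inputs, and STAT, IRF, C/EBP and HIF regulators. The lists were chosen with earlier results of these data known, so that their calls and counts are a description. Counts of genes at an unadjusted p below 0.05, in these lists and for the markers further on, come with no share over all genes. Nothing is read from them. Of 24 receptor genes 5 were tested and 0 passed (2 had an unadjusted p below 0.05; DESeq2 called 0), with a median log2 fold change of 0.32 against -0.01 for all tested genes. Ackr3, the atypical receptor that takes up and degrades Cxcl12, was at 62.3, 42.9 and 71.1 CPM in wild type and at 68.8, 108 and 108 CPM in the others (log2 fold change 0.69, SE 0.27, edgeR adjusted p = 0.347). The highest wild-type library overlapped the lowest of the others. Cxcr4, the signalling receptor of Cxcl12, was too low to test, with 12 counts in all of wild type and 1 in the NgBR-labelled libraries together. Cxcr2, Ccr2, Cxcr3, Cx3cr1 and Cxcr6, which bind other chemokine members and are named regardless of their values, had 2, 0, 0, 2 and 13 counts over wild type and 0, 0, 0, 4 and 3 over the others. Il6st, the signal-transducing subunit gp130 of the IL-6 receptor, was at 1349 ± 539 and 1031 ± 672 CPM (log2 fold change -0.39, edgeR adjusted p = 0.873). Its value was -1.07 without NgBR-labelled library 2 and -0.02 without wild-type library 2.

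Among 13 tested genes of 14 that process or bind chemokines, 1 fell and 0 rose, with a median log2 fold change of -0.02. Over all tested genes 1.35% were called lower and 2.04% higher. The gene of the list that fell was Sdc3, syndecan-3, a heparan sulfate proteoglycan of the cell surface. Heparan sulfate chains bind Cxcl12 and other chemokines. Sdc3 was at 71.0, 53.3 and 67.8 CPM in wild type and at 11.8, 12.4 and 5.73 CPM in the others, with separate ranges. The means differed 6.43-fold, the edgeR log2 fold change was -2.69 (SE 0.32, adjusted p = 0.00231), and the call held without each library in turn. DESeq2 also called Mmp9, a gelatinase, lower in this list (log2 fold change -1.03, DESeq2 adjusted p = 0.0447), which edgeR did not.

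Of 29 other chemokine genes 6 were tested and 0 passed (1 had an unadjusted p below 0.05; DESeq2 called 0), with a median log2 fold change of -0.24. The most abundant were Ccl9 (log2 fold change -1.0, edgeR adjusted p = 0.502), whose value was -0.11 without wild-type library 2, and Ccl25, a thymic and intestinal chemokine, at 5.01 ± 1.0 and 4.30 ± 1.81 CPM (log2 fold change -0.23, edgeR adjusted p = 0.916). The sign of Ccl25 turned without NgBR-labelled library 2 (0.074). In 11 of the 29 there was no count in any library. Of 16 other cytokines 10 were tested and 0 called by edgeR (4 at an unadjusted p under 0.05), with a median of 0.04. DESeq2 called 2 of them lower, Csf1 and Csf3. Other fits called 2 of them higher. Il33, an alarmin of the IL-1 family, was at 4.64, 6.02 and 4.61 CPM in wild type and at 2.25, 37.6 and 15.0 CPM in the others, and was called with no filter on low counts (log2 fold change 1.80, edgeR adjusted p = 0.0279) and without NgBR-labelled library 1 (2.36, adjusted p = 0.0426). Il34, a ligand of the Csf1 receptor, was at 3.24, 2.23 and 3.58 CPM and at 8.84, 3.36 and 8.69 CPM, and was called without NgBR-labelled library 2 (log2 fold change 1.53, edgeR adjusted p = 0.0424) and without both libraries numbered 2 (1.36, adjusted p = 0.0211). Csf1, the growth factor of macrophages, was at 604, 1284 and 699 CPM in wild-type libraries and at 388, 392 and 455 CPM in the others (log2 fold change -1.07, SE 0.33, edgeR adjusted p = 0.178, DESeq2 adjusted p = 0.0347). Clcf1, of the IL-6 family, was at 39.4 ± 2.61 and 44.5 ± 9.99 CPM (log2 fold change 0.17, edgeR adjusted p = 0.884), and its sign turned without NgBR-labelled library 3 (-0.013).

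All 23 genes of NF-kB and its inputs were tested, of which 1 fell and 0 rose. Of the 23, 7 had an unadjusted p below 0.05, from which nothing is read, since no share over all genes stands beside it. The ranges were separate for 8 with wild type higher and for 2 with wild type lower. Over all tested genes 9.37% had separate ranges with wild type higher, and 18.6% in either direction. The median log2 fold change of the list was -0.29. Of its 23 values 19 were below 0, where 51.3% of all tested genes were below 0 and 1.35% were called lower. Tlr2, a Toll-like receptor for bacterial lipopeptides, fell from 39.3, 45.0 and 39.7 CPM in wild type to 12.8, 18.1 and 12.0 CPM in the others (log2 fold change -1.53, SE 0.24, edgeR adjusted p = 0.00794). The ranges were separate, and without NgBR-labelled library 1 the log2 fold change was -1.46 and not called (edgeR adjusted p = 0.0607). Tnfaip3, the NF-kB inhibitor A20, was at 9.62, 21.6 and 10.6 CPM in wild type and at 23.0, 32.2 and 23.5 CPM in the others (log2 fold change 0.92, SE 0.34, edgeR adjusted p = 0.300). Without wild-type library 2 it was called higher (log2 fold change 1.38, edgeR adjusted p = 0.0337), as it was without both libraries numbered 2 (1.20, adjusted p = 0.0153). Il1r1, the IL-1 receptor, was called lower in the latter fit (-1.01, adjusted p = 0.0306; -0.79 and adjusted p = 0.169 with all libraries). Of the 22 tested of 23 STAT, IRF, C/EBP and HIF regulators 0 passed (1 had an unadjusted p below 0.05; DESeq2 called 0), with a median of -0.09. The most abundant, the cytokine receptor kinase Jak1 and the hypoxia factor Hif1a, had log2 fold changes of 0.26 and -0.44 (edgeR adjusted p = 0.845 and 0.774).

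**Figure D5:**
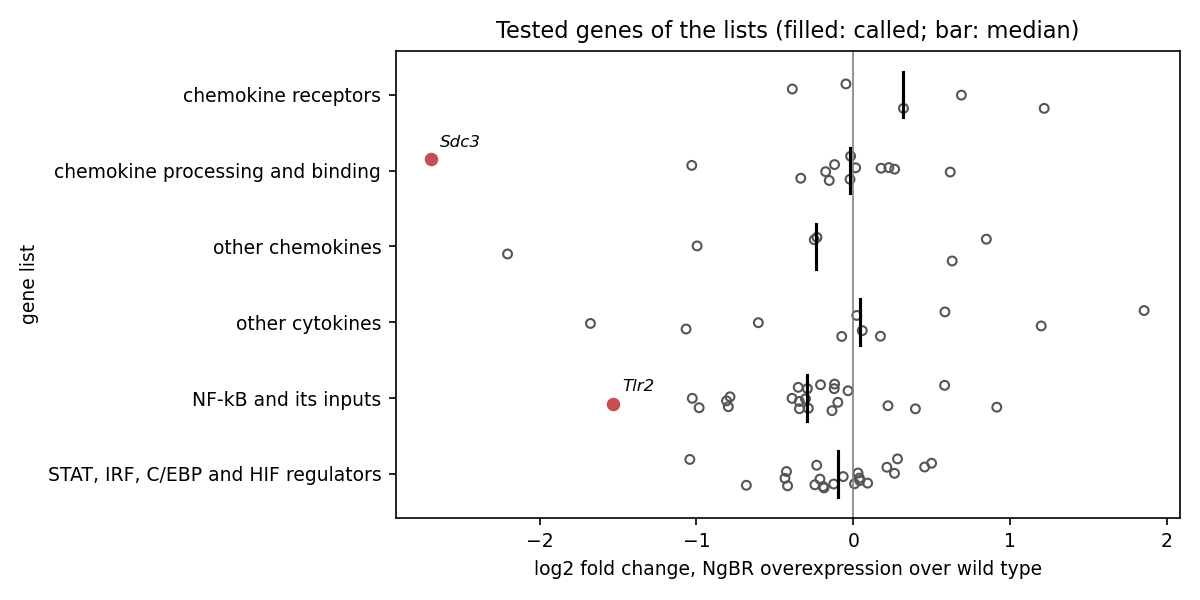
Log2 fold changes, NgBR overexpression over wild type, of the tested genes in 6 lists; filled points were called by edgeR over all genes, open points were not, and bars are list medians. Sdc3 (-2.69) and Tlr2 (-1.53) are the called genes.

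The fibroblast label was checked with 10 markers, all tested, with 0 called by edgeR (1 at an unadjusted p under 0.05), while DESeq2 called 1, Dcn, lower. Dcn (decorin) was at 813 ± 111 CPM in wild type and 332 ± 144 CPM in the others (log2 fold change -1.29, SE 0.36, edgeR adjusted p = 0.118), with separate ranges. Pdgfra was at 951 ± 53.9 and 644 ± 190 CPM, also with separate ranges (log2 fold change -0.56, edgeR adjusted p = 0.536). Col1a1 had separate ranges in the other direction, at 3031 ± 229 and 4562 ± 995 CPM (log2 fold change 0.59, edgeR adjusted p = 0.591). Col1a2 was at 5294 CPM and Vim at 2908 CPM in wild type, and the summed level of the list was 21366 to 25529 CPM in wild type and 21734 to 32663 CPM in the others. Leukocyte markers, of which 3 of 10 passed the filter and 0 were called (none by DESeq2 either, and 0 with an unadjusted p under 0.05), summed to 14.2 to 14.8 CPM in wild type and 8.98 to 12.9 CPM in the others. The defining gene Ptprc (CD45) had 21 and 2 counts over the groups. The leukocyte sum, most of it Cd14 at 10.2 and 6.85 CPM, moved with the groups, and its part in the members' levels was not tested. Endothelial markers (1 of 6 tested, not called) summed to 1.93 to 2.58 CPM and 3.15 to 4.21 CPM, and epithelial markers (1 of 6 tested, not called) to 0.237 to 0.773 CPM and 0.791 to 2.39 CPM, with Epcam at 0 counts in all libraries. Both sums were higher in each NgBR-labelled library than in wild type, and their part in the members' levels was not tested either.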

How the data were processed

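The authors deposited unnormalized read counts for each gene. The submitters' processing notes name HISAT2 2.0.5, featureCounts 1.5.0-p3, DESeq2 and build mm10, without their roles. Annotation release and strand setting: not given in the sources used here. Genes were kept by filterByExpr (edgeR 4.0.16, R 4.3.3), which left 12651, and tested by the quasi-likelihood F test with TMM factors, no covariate and Benjamini-Hochberg adjustment. The members and lists were chosen with earlier results of these data known. Named genes were the members, the called genes of each list or else its 2 most abundant tested genes, and Nus1. The 5 genes nearest to Cxcl12 were also named, leaving out genes with a symbol of a predicted gene or clone. Some genes were named regardless of this rule: receptors of the members, neighbouring chemokines, Csf3, Mmp9, genes called only in an alternative fit, and markers. Positions and exonic lengths came from GENCODE M21 (same assembly; 97.8% of identifiers matched). The fit was tested on simulated data. The alternatives were DESeq2 1.42.0, limma-voom (limma 3.58.1), RLE or no composition factors, other filters, the replicate block and libraries left out.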

Additional observations from a re-analysis of the deposited data

How the results depend on the processing

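Among the 14 alternative fits, Cxcl10 had a value in only 10. It failed the filter without each wild-type library in turn and with the filter of at least 1 CPM in 3 libraries. Of 108 member values under these fits, 106 kept their direction. The exceptions were Cxcl1 without NgBR-labelled library 1 (0.048; range over libraries left out -0.72 to 0.048) and Cxcl10 without both libraries numbered 2 (0.17); in neither was the cause tested. Of the list genes, Ccl25 turned to 0.074 without NgBR-labelled library 2 (range -0.49 to 0.074) and 0.11 without both libraries numbered 2, and Clcf1 to -0.013 without NgBR-labelled library 3 (range -0.013 to 0.31). Called list genes numbered 2, against 5 with DESeq2, 6 with the replicate block (among them Relb and Il1r1 lower and Tnfaip3 higher) and 5 without both libraries numbered 2, and 2 to 3 when each library was left out. Over all genes 429 were called (258 higher, 171 lower), against 712 with DESeq2 (449 and 263), 688 with no filter on low counts (302 lower), 719 with the replicate block (418 and 301), and 263 lower without both libraries numbered 2. Leaving out each library gave 225 to 374 calls, 141 to 209 higher and 84 to 165 lower. Members with separate ranges numbered 3, 3 to 7 when each library was left out (22.1 to 33.4% of all tested genes), and 5 without both libraries numbered 2 (44.3%). The rank of Cxcl12 was 5 per kilobase and 3 by CPM. Of the 5 named genes nearest to it, 0 were shared with Pearson correlation and 4 with a pseudocount of 0.1.

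Deviations from the group means of same-numbered libraries had correlations of 0.03, 0.37 and 0.47 for numbers 1 to 3. Wild-type library 1 correlated best with NgBR-labelled library 3 (0.21), and every other library with its own number. The libraries thus shared structure by number. The labels give the numbers only, and the main fit did not pair the samples by them. It called 429 genes, against 719 with the replicate block. With the replicate block, the log2 fold change of Cxcl12 was -2.83. The depth of the NgBR-labelled libraries limits Ccl5, Cxcl10 and Cxcl16. Most receptors had few or no counts in the deeper wild-type libraries too, and 6 of the 24 had none in any library.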
